A study of Caenorhabditis elegans with 6 samples.

Results

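The small RNA and RNA interference (RNAi) machinery of Caenorhabditis elegans was examined here in dissected germlines with and without the RNA-editing enzyme ADR-2. The members are 42 genes listed by name, covering Argonautes, Dicer and its partners, RNA-dependent RNA polymerases, Mutator factors and nuclear RNAi factors. They are defined by their names alone, with no threshold on a measured value. Of the 42, 41 were found among the 18206 genes with expression values. Expression of drh-3, which encodes a Dicer-related helicase of the polymerase complexes, was not analysed here.

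The 2 groups were adr-2(-) germlines, from strain BB20 carrying adr-2(ok735), and wild-type germlines, from strain N2, with 3 biological replicates each. Germlines were cut out of synchronized young adult hermaphrodites raised at 20°C, and their RNA was enriched for poly(A) tails before sequencing. The mutation is carried by the whole animal and not by the germline alone. Small RNAs themselves are not captured by poly(A) selection, so the values describe the mRNAs of the pathway proteins. Editing was listed separately for each wild-type replicate and once for the merged adr-2(-) libraries.

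Small RNAs guide Argonaute proteins to matching transcripts. In worms, double-stranded RNA is cut by Dicer into primary small interfering RNAs, while piRNAs arise from the genome by their own route. 26G RNAs are made by an RNA-dependent RNA polymerase in a complex with Dicer. Targets of these primary RNAs are copied by RNA-dependent RNA polymerases into abundant 22G RNAs, which secondary Argonautes carry in the cytoplasm and the nucleus. ADARs bind the same kind of double-stranded RNA that Dicer cuts and change its adenosines to inosines, and the 2 systems are known to interact genetically in worms.

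The libraries held 33658937 to 38310069 reads on genes in adr-2(-) and 44991286 to 96397215 in wild type. The deleted gene had 29.2, 61.0 and 35.6 normalized counts in adr-2(-), against 3020, 2822 and 2852 in wild type, so each library matched its label. Summed counts of 10 germline marker genes ran between 293946 and 370050 in adr-2(-) and between 344306 and 355991 in wild type, and all 10 were present in both. Markers of gonadal sheath and spermatheca summed to 66879 to 71104 in adr-2(-) and 67855 to 72727 in wild type. Neuron markers summed to 4018 to 5023 in adr-2(-) and 4349 to 4507 in wild type. How much RNA came from somatic cells was not tested. One library stood apart. In adr-2(-) replicate 1, 8 body wall muscle markers summed to 15782 normalized counts, against 2396 to 3635 in the other adr-2(-) libraries and 2339 to 3549 in wild type, and intestinal and cuticle markers were high there as well. Among the 41 RNAi genes, that library had the lowest value of all 6 libraries for 17 genes and the highest for 5. Other libraries were uneven too, with adr-2(-) replicate 3 highest for 14 genes and wild-type replicate 3 lowest for 12. The part of adr-2(-) replicate 1 in the results was not tested, and the values without it are given where they matter. In bulk samples, fewer cells of a type and less RNA per cell cannot be told apart.

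All 41 measured genes were expressed well above the minimum used for testing, a mean of 10 normalized counts. Normalized counts are read counts divided by one factor per library. In the least covered library each gene had at least 156 reads, and 38 of the 41 genes had at least 1000 reads in every library. Together the members took 0.958% to 0.975% of the reads in adr-2(-) and 0.914% to 0.947% in wild type. On the normalized scale the order did not hold, since the members summed to 410414, 441024 and 429342 normalized counts in adr-2(-), against 448348, 430712 and 431118 in wild type, which overlapped. rRNA genes took 0.261% to 0.417% of the reads in adr-2(-) and 0.605% to 1.33% in wild type, and their part in the read shares was not tested.

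No member differed between adr-2(-) and wild-type germlines by the rule used to call a gene. That rule asks limma for an adjusted p no larger than 0.05, with Benjamini-Hochberg correction across 9779 genes, together with a log2 fold change of 0.5 or more in size. By the same rule 0.297% of all genes were called, 20 of them up and 9 down in adr-2(-). The smallest adjusted p among the members was 0.12. edgeR also called 0 members, where it called 0.199% of all genes. DESeq2, the tool the authors used, differed in that it called 1 member, drh-2, where it called 1.31% of all genes. At an unadjusted p under 0.05, 4 of the 41 members passed, or 9.76%, against 12.5% of all genes tested.

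The differences were also small. The median log2 fold change of adr-2(-) over wild type was 0.024 over the members and 0.0046 over all genes tested, with 25 members positive and 16 negative. Of the 41 members, 27 had a log2 fold change within 0.1 of 0 in either direction and 37 within 0.2. The 95% interval of the log2 fold change lay wholly between -0.5 and 0.5 for 39 of the 41 genes, and only drh-2 and alg-2 had intervals reaching past these bounds. The spread behind these intervals was low, with a median coefficient of variation of 6.12% in adr-2(-) and 4.34% in wild type. The 4730 genes averaging 1000 normalized counts or more had similar spreads, 6.49% in adr-2(-) and 4.88% in wild type. Their median absolute log2 fold change was 0.085, against 0.068 for the members, 38 of which reach that mean.

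**Figure D1:**
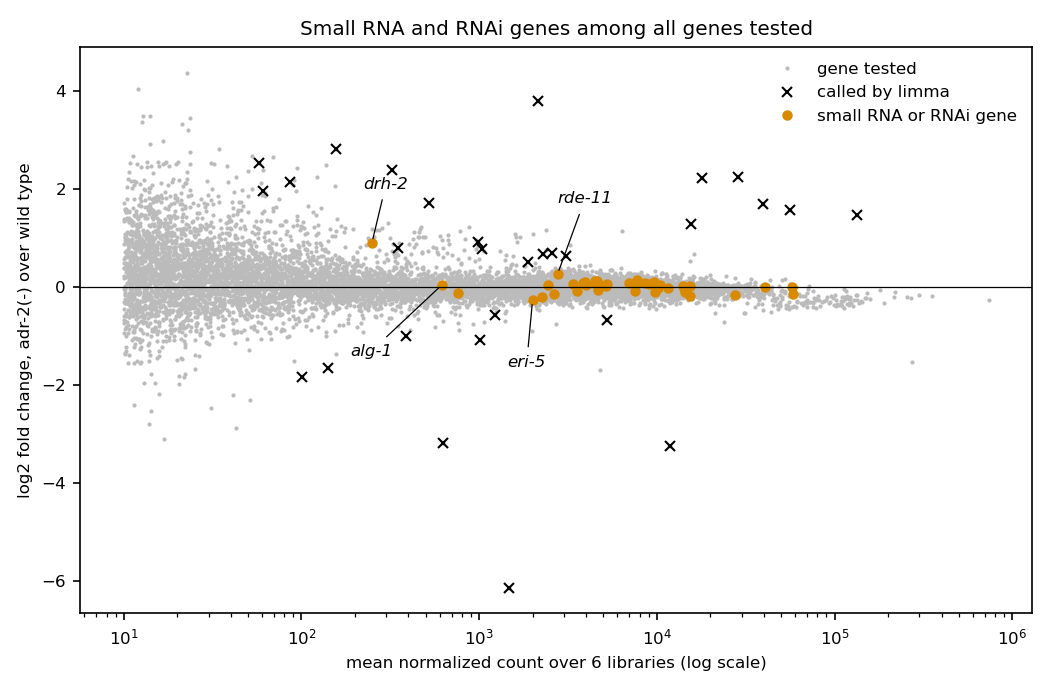
Log2 fold change of adr-2(-) over wild type (y axis) against the mean normalized count over the 6 libraries (x axis, log scale) for the 9779 genes tested in grey, with the 29 genes called by limma as crosses and the 41 small RNA and RNAi genes in orange. The members lie in a narrow band around 0 except drh-2, at 0.90, and none is called.

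Libraries of the 2 strains did not overlap for 7 of the 41 members, 17.1%, against 18.8% of all genes tested. In 4 members every adr-2(-) library was above every wild-type library (9.5% of all genes tested): drh-2, rde-11, drsh-1 and mut-2. In 3 members every adr-2(-) library was below every wild-type library (9.26% of all genes tested): eri-5, prg-1 and mut-14. With 3 libraries against 3, an exact permutation test of a single gene cannot go below p = 0.1.

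**Figure D2:**
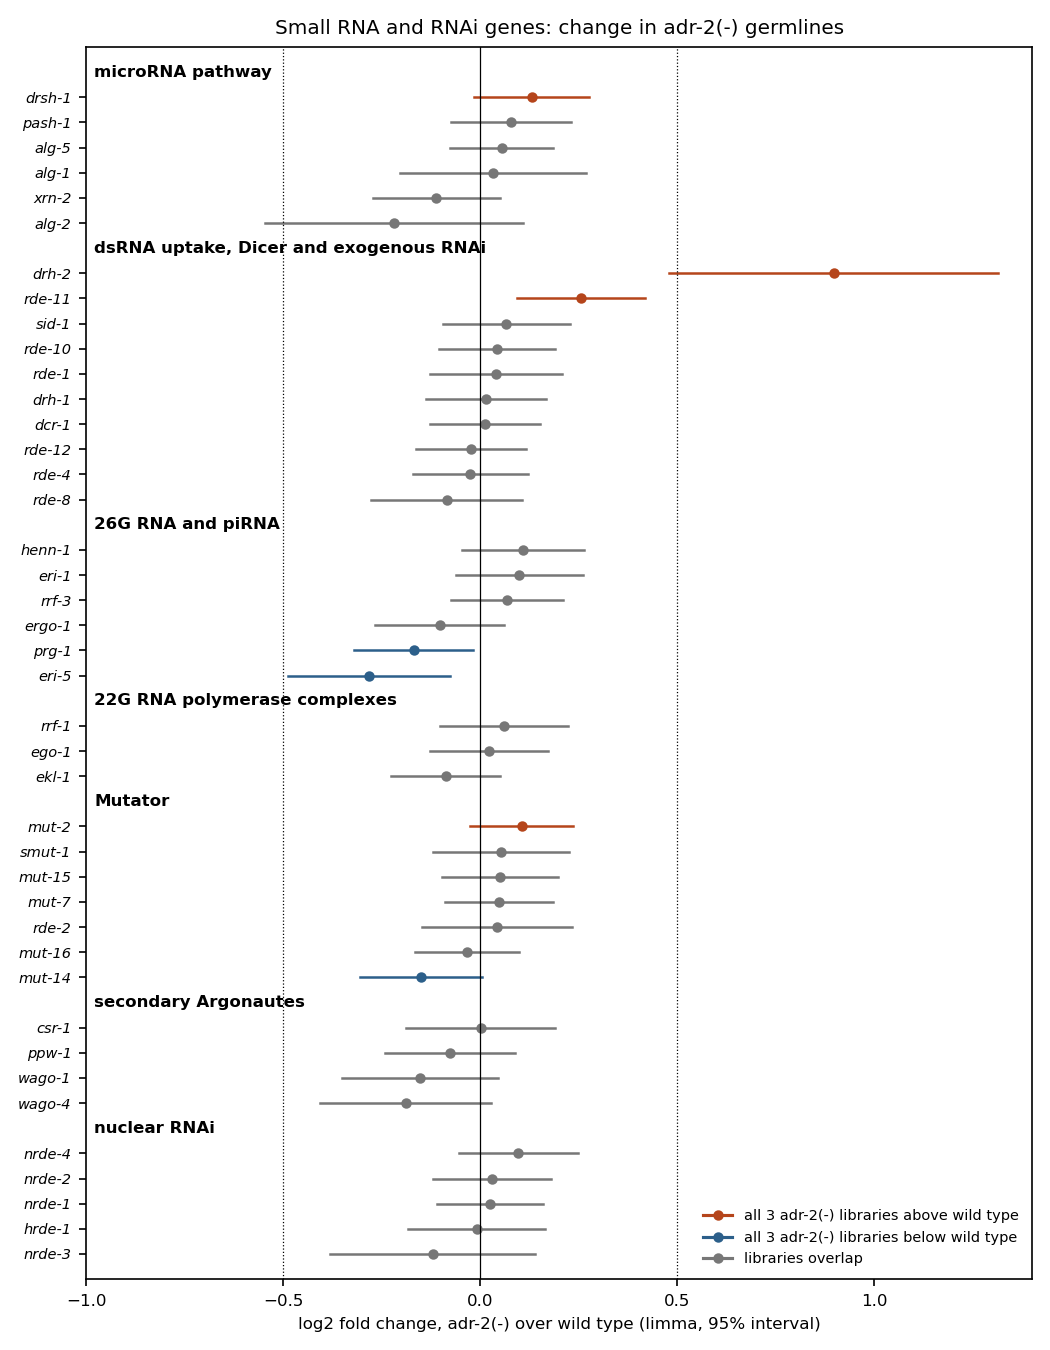
Log2 fold change of adr-2(-) over wild type with its 95% interval from limma (x axis) for the 41 genes, in their 7 classes. Genes whose adr-2(-) libraries all lie above wild type are red, those all below are blue and the rest grey, and the dotted lines mark -0.5 and 0.5. The intervals of 39 genes stay between the dotted lines.

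The microRNA genes come first. Primary microRNA transcripts are cut in the nucleus by Drosha, encoded by drsh-1, with its RNA-binding partner encoded by pash-1. drsh-1 (I:9781324-9785724, minus strand) had 7775, 7940 and 8596 normalized counts in adr-2(-), against 7642, 7048 and 7519 in wild type. The groups did not overlap, but the lowest adr-2(-) library was only slightly above the highest wild-type one, and the log2 fold change was 0.13 ± 0.065 (SE, adjusted p = 0.446, limma). pash-1 averaged 7121 ± 452 in adr-2(-) and 6742 ± 288 in wild type (SD, n = 3 each), and its groups overlapped.

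Of the Argonautes that bind microRNAs, alg-1 and alg-2 are the broadly acting pair and alg-5 is a germline one. alg-5 was the most abundant of the 3 per kb of exon, at 2949 ± 36.2 normalized counts per kb in adr-2(-) and 2842 ± 120 in wild type (SD, n = 3 each). alg-2 (II:873212-879885, plus strand) had 1669, 2424 and 2207 normalized counts in adr-2(-), against 2082, 2448 and 2765 in wild type. Its libraries overlapped and were widely scattered, averaging 2100 ± 389 in adr-2(-) and 2432 ± 341 in wild type (SD, n = 3 each). The log2 fold change of alg-2 was -0.22 with a 95% interval from -0.55 to 0.11, and it was -0.063 when adr-2(-) replicate 1 was left out. Leaving out adr-2(-) replicate 2 gave -0.33, and leaving out wild-type replicate 3 gave -0.12.

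alg-1 (X:13949110-13956261, plus strand) had 578, 673 and 619 normalized counts in adr-2(-), against 620, 622 and 583 in wild type. The ranges overlapped almost fully, and the log2 fold change was 0.033 ± 0.11 (SE). xrn-2, an exonuclease that degrades mature microRNAs released from Argonautes, had a log2 fold change of -0.11 ± 0.072 (SE). Over the 6 microRNA genes the median log2 fold change was 0.043, and 1 of the 6 had groups that did not overlap.

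**Figure D3:**
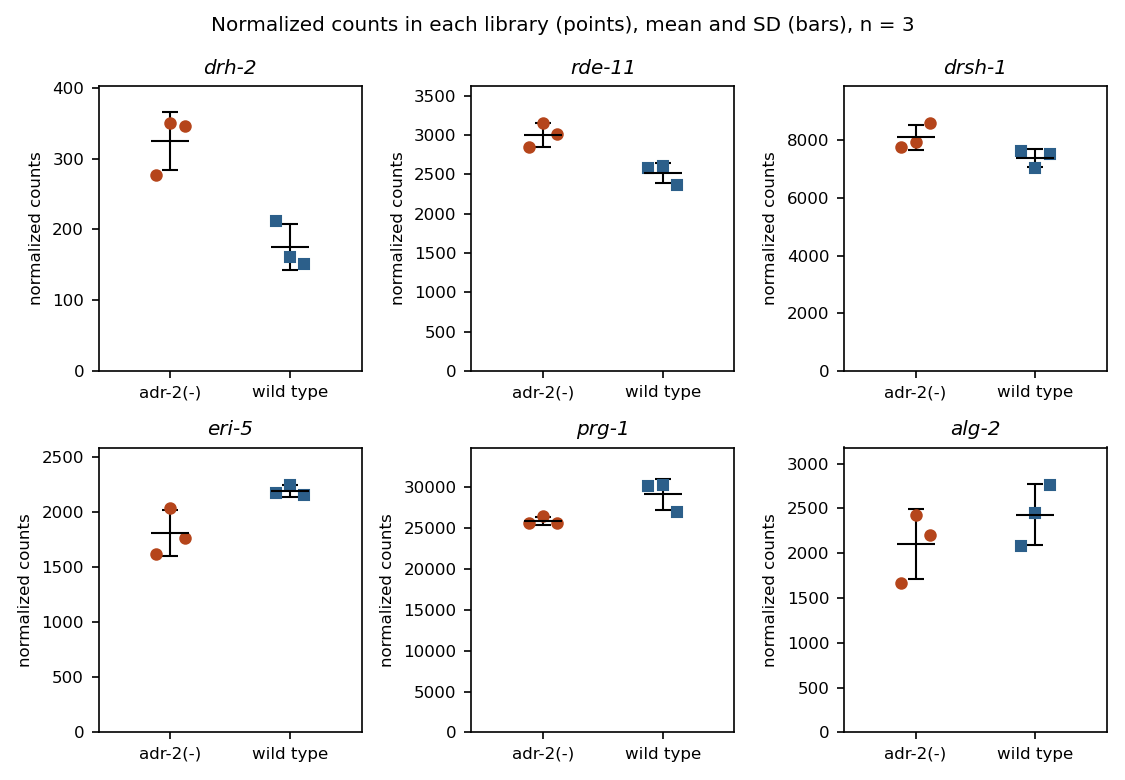
Normalized counts in each library (points) with the mean and SD (bars, n = 3) for drh-2, rde-11, drsh-1, eri-5, prg-1 and alg-2, adr-2(-) left and wild type right, each y axis starting at 0. drh-2 shows the widest gap, between 277 and 350 in adr-2(-) and between 151 and 212 in wild type, while alg-2 overlaps.

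Genes for the response to double-stranded RNA had log2 fold changes between -0.085 and 0.066, apart from drh-2 and rde-11. SID-1 is the channel that lets double-stranded RNA into cells, Dicer (DCR-1) cuts it with the double-stranded RNA-binding protein RDE-4, and RDE-1 is the Argonaute that takes up the primary products. rde-4 (III:10217302-10218646, minus strand) had 9455, 10444 and 10338 normalized counts in adr-2(-), against 10603, 9751 and 10402 in wild type. The groups overlapped, and the log2 fold change of rde-4 was -0.025 with a 95% interval from -0.17 to 0.12. dcr-1 itself averaged 14115 ± 580 normalized counts in adr-2(-) and 14009 ± 616 in wild type (SD, n = 3 each). The log2 fold changes of dcr-1, rde-1 and sid-1 were 0.011, 0.041 and 0.066, with 95% intervals that together ran from -0.13 to 0.23.

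drh-1 and drh-2 are neighbours on chromosome IV, 565 nucleotides apart on the same strand. DRH-1 is a RIG-I-like helicase that works with Dicer in antiviral RNAi, and drh-2 is annotated as a pseudogene. drh-2 (IV:6613918-6618498, minus strand) had 277, 350 and 346 normalized counts in adr-2(-), against 211, 161 and 151 in wild type. Every adr-2(-) library was above every wild-type library, and the mean was 1.86-fold higher in adr-2(-), with a 95% interval from 1.39-fold to 2.49-fold. The log2 fold change was 0.90 ± 0.19 (SE), with an adjusted p of 0.12 by limma, 0.133 by edgeR and 0.0048 by DESeq2. Only the DESeq2 value is past the threshold.

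The neighbouring drh-1 (IV:6607376-6613353, minus strand) did not show this difference. It had 5142, 4906 and 5603 normalized counts in adr-2(-), against 5339, 5036 and 5099 in wild type, with a log2 fold change of 0.015 ± 0.068 (SE). The other tested gene within 5000 nucleotides of drh-2, C01B10.3 on the same strand, had a log2 fold change of 0.87 with an SE of 0.71 and an adjusted p of 0.654. Because drh-2 resembles drh-1 in sequence and had far fewer reads, its count may hold reads of drh-1, or lose reads to it, depending on how reads that match both were treated, which is not given in the sources used here. The muscle-marker-rich adr-2(-) replicate 1 had the lowest drh-2 value of its strain, and without it the log2 fold change was 1.01 with an adjusted p of 0.0785 (limma). Over all alternatives run, the adjusted p of drh-2 ranged from 0.0048 (DESeq2) to 0.456 (limma without adr-2(-) replicate 3).

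Downstream of RDE-1, the endonuclease RDE-8 cleaves targets, RDE-10 and RDE-11 form a complex needed for secondary small RNAs, and RDE-12 is a DEAD-box helicase. rde-11 (IV:13105200-13106927, plus strand) had 2847, 3152 and 3019 normalized counts in adr-2(-), against 2581, 2609 and 2367 in wild type. The groups did not overlap, and the log2 fold change of 0.26 ± 0.072 (SE, adjusted p = 0.209, limma) was the largest increase among protein-coding members. Its complex partner rde-10 had a log2 fold change of 0.043 ± 0.065, and those of rde-12 and rde-8 were -0.023 and -0.085. Over the 10 genes of this class the median log2 fold change was 0.028.

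Genes of the 26G RNA and piRNA routes held the lowest fold change of the set. RRF-3 is the polymerase that makes 26G RNAs in a complex with Dicer, to which the Tudor protein ERI-5 tethers it, and ERI-1 is an exonuclease of the same complex. eri-5 (IV:2390821-2396263, plus strand) had 1620, 2036 and 1765 normalized counts in adr-2(-), against 2173, 2245 and 2147 in wild type. Each adr-2(-) library was below each wild-type library, with the wild-type libraries close together. The log2 fold change of eri-5 was -0.28 ± 0.091 (SE, 95% interval -0.49 to -0.08, adjusted p = 0.278, limma). The lowest value of eri-5 was again in adr-2(-) replicate 1, and without that library the log2 fold change was -0.21. The partners rrf-3 and eri-1 had positive log2 fold changes, 0.068 ± 0.063 and 0.099 ± 0.072 (SE). All tested genes within 5000 nucleotides of eri-5 had negative log2 fold changes too, from -0.43 for sec-61.B to -0.12 for Y38F2AR.3. Their adjusted p was at least 0.2495 (limma), and a shared cause was not tested.

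ERGO-1 is the Argonaute of 26G RNAs made in oocytes and embryos. ergo-1 (V:1008803-1018352, plus strand) had 12905, 15027 and 13871 normalized counts in adr-2(-), against 14796, 14255 and 15815 in wild type, which overlapped. The methyltransferase HENN-1 protects the ends of piRNAs and of the 26G RNAs bound by ERGO-1. henn-1 (III:8232651-8234611, plus strand) had 4841, 4385 and 4781 normalized counts in adr-2(-), against 4587, 4240 and 4166 in wild type, which overlapped with a log2 fold change of 0.11 ± 0.068 (SE).

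PRG-1 is the Piwi Argonaute that binds piRNAs and is among the most abundant Argonautes of the germline. prg-1 (I:7585329-7588367, minus strand) had 25568, 26455 and 25596 normalized counts in adr-2(-), against 30136, 30295 and 26961 in wild type. The adr-2(-) values were tightly grouped and all lay under the wild-type ones, but the lowest wild-type library was close to them. The log2 fold change of prg-1 was -0.17 ± 0.067 (SE, adjusted p = 0.342, limma). Its close relative prg-2, annotated as a pseudogene, had a log2 fold change of -0.022 ± 0.075, and reads that match both cannot be assigned with certainty.

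Polymerases that make 22G RNAs were level between strains. RRF-1 and EGO-1 are encoded next to each other on chromosome I, and EGO-1 is the one required for fertility. rrf-1 (I:7643431-7649777, minus strand) had 5538, 4928 and 5600 normalized counts in adr-2(-), against 5035, 4931 and 5434 in wild type. ego-1 (I:7650341-7656338, minus strand) had 15595, 14510 and 16342 in adr-2(-), against 15998, 14958 and 14785 in wild type. Both overlapped between strains, with log2 fold changes of 0.060 ± 0.072 and 0.021 ± 0.067 (SE). The Tudor protein gene ekl-1, whose product joins these polymerases, had a log2 fold change of -0.087 ± 0.061.

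Mutator genes encode the perinuclear foci in which 22G RNAs against silenced targets are amplified, with MUT-16 as the scaffold. The 7 Mutator genes had log2 fold changes between -0.15 and 0.10, with a median of 0.047. mut-2 (I:6356614-6358411, minus strand), which encodes a nucleotidyltransferase that adds poly(UG) tails to targets, had 4715, 4659 and 4903 normalized counts in adr-2(-), against 4509, 4312 and 4455 in wild type. Its groups did not overlap, but the log2 fold change was 0.10 ± 0.058 (SE). An exon of mut-2 shares 67 bases with bli-4 on the opposite strand, and whether counting used strand is not given in the sources used here. Other members also share exon bases with other genes. nrde-1 shares 99 with C14B1.8 on the opposite strand, and csr-1 shares 438 with frpr-10 on the same strand, which averaged 9.84 normalized counts.

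mut-14 and smut-1 encode related DEAD-box helicases known to act redundantly. mut-14 (V:5658713-5660704, minus strand) had 2491, 2521 and 2492 normalized counts in adr-2(-), against 2769, 2955 and 2616 in wild type. All adr-2(-) libraries were lower, and the log2 fold change of mut-14 was -0.15 ± 0.069 (SE, adjusted p = 0.414, limma). smut-1 (V:6097105-6099083, plus strand) had 3128, 3524 and 3665 in adr-2(-), against 3447, 3168 and 3321 in wild type, which overlapped. Its exons share 92 bases with crt-1 on the opposite strand, which averaged 21260 normalized counts, so the same limit holds for smut-1 and its ratios. The scaffold gene mut-16 averaged 11463 ± 500 in adr-2(-) and 11725 ± 259 in wild type (SD, n = 3 each). The log2 fold changes of mut-7, mut-15, mut-16 and rde-2 were 0.047, 0.051, -0.033 and 0.042.

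Secondary Argonautes were the class with the highest summed level, 34884 ± 2931 normalized counts per kb in adr-2(-) and 37521 ± 937 in wild type (SD, n = 3 each). CSR-1 binds 22G RNAs against expressed germline genes and protects them, while WAGO-1, WAGO-4 and PPW-1 carry 22G RNAs that silence their targets. wago-1 (I:7235384-7238792, plus strand) had 48918, 60148 and 56929 normalized counts in adr-2(-), against 61464, 58843 and 63683 in wild type. The groups overlapped, the lowest library was adr-2(-) replicate 1, and the log2 fold change of -0.15 ± 0.088 (SE) was -0.067 without it. csr-1 (IV:7957267-7962157, plus strand) had 39342, 44774 and 37850 in adr-2(-), against 42426, 41701 and 37635 in wild type. Its log2 fold change was 0.00065, with a 95% interval from -0.19 to 0.19.

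wago-4, needed for inheritance of RNAi (II:12919551-12923377, plus strand), had 13901, 15251 and 13571 normalized counts in adr-2(-), against 18051, 16928 and 13960 in wild type. Wild-type replicate 3 lay among the adr-2(-) values, so the groups overlapped, and the log2 fold change of wago-4 was -0.19 ± 0.096 (SE). It was -0.30 without wild-type replicate 3 and -0.11 without wild-type replicate 1. ppw-1 (I:4185174-4189956, plus strand) had 4210, 4974 and 4437 in adr-2(-), against 4789, 4667 and 4877 in wild type, which overlapped. Over the 4 secondary Argonautes the median log2 fold change was -0.11, with 3 of 4 negative.

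The 5 nuclear RNAi genes had log2 fold changes from -0.12 to 0.096, with overlapping groups in each. HRDE-1 is the germline nuclear Argonaute and NRDE-3 its counterpart in somatic cells, and NRDE-1, NRDE-2 and NRDE-4 act with them on nascent transcripts and chromatin. hrde-1 (III:4172337-4176159, minus strand) had 53663, 61895 and 56431 normalized counts in adr-2(-), against 57132, 55627 and 60155 in wild type. Its log2 fold change was -0.0095, with a 95% interval from -0.18 to 0.16. nrde-3 (X:372235-376900, plus strand) had 673, 704 and 807 in adr-2(-), against 701, 841 and 833 in wild type, which overlapped. The log2 fold changes of nrde-1, nrde-2 and nrde-4 were 0.024, 0.030 and 0.096.

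The 12 Argonaute genes in the list can also be read across classes. Of these, 4 had a positive and 8 a negative log2 fold change in adr-2(-), with a median of -0.090, and none was called. They held 48.6% to 51.5% of the summed level per kb of all members in adr-2(-), against 51.0% to 51.6% in wild type. The ranges overlapped. The 19 members not given by library here had log2 fold changes from -0.11 to 0.099, with overlapping groups in all 19 and a smallest adjusted p of 0.557 (limma).

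Levels differed far more between genes than between strains. Divided by the exon length of each gene, normalized counts per kb ran over a 356-fold range in wild type, with the median member at 2427 in adr-2(-) and 2381 in wild type. wago-1 was highest, at 18112 ± 1893 normalized counts per kb in adr-2(-) and 20075 ± 793 in wild type (SD, n = 3 each), followed by hrde-1 at 16209 ± 1184 in adr-2(-) and 16296 ± 652 in wild type. Next came csr-1 at 11084 ± 993 in adr-2(-) and 11065 ± 704 in wild type, and prg-1 at 9705 ± 189 in adr-2(-) and 10927 ± 705 in wild type, whose wild-type libraries overlapped. The fifth was rde-4, the only one of these that is not an Argonaute, at 8371 ± 451 in adr-2(-) and 8515 ± 370 in wild type.

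At the low end, drh-2 had 105 ± 13.3 normalized counts per kb in adr-2(-) and 56.3 ± 10.4 in wild type. alg-1 had 93.1 ± 7.11 in adr-2(-) and 90.9 ± 3.23 in wild type, and nrde-3 had 211 ± 20.3 in adr-2(-) and 230 ± 22.9 in wild type. These 3 genes, with alg-2 at 507 ± 93.9 in adr-2(-) and 587 ± 82.4 in wild type, stood below rrf-1, at 1066 ± 73.9 in adr-2(-) and 1022 ± 52.9 in wild type. Of the 40 pairs of neighbours in the wild-type order, 12 had libraries that did not overlap, and in the other 28 the libraries overlapped. Ranks moved by at most 4 places between the strains, and the 5 highest kept their places.

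Against the 9779 genes tested, the 40 protein-coding members lay between the 34.3rd and the 98.1st percentile by level per kb in wild type, with a median at the 69.5th. alg-1, nrde-3 and alg-2 were the 3 below the median of the genes tested. The members on chromosome X, alg-1 and nrde-3, were the 2 lowest protein-coding members. Among the genes tested, those on X had a median of 70.9 normalized counts per kb in wild type, against medians between 365 and 1737 on the autosomes.

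**Figure D4:**
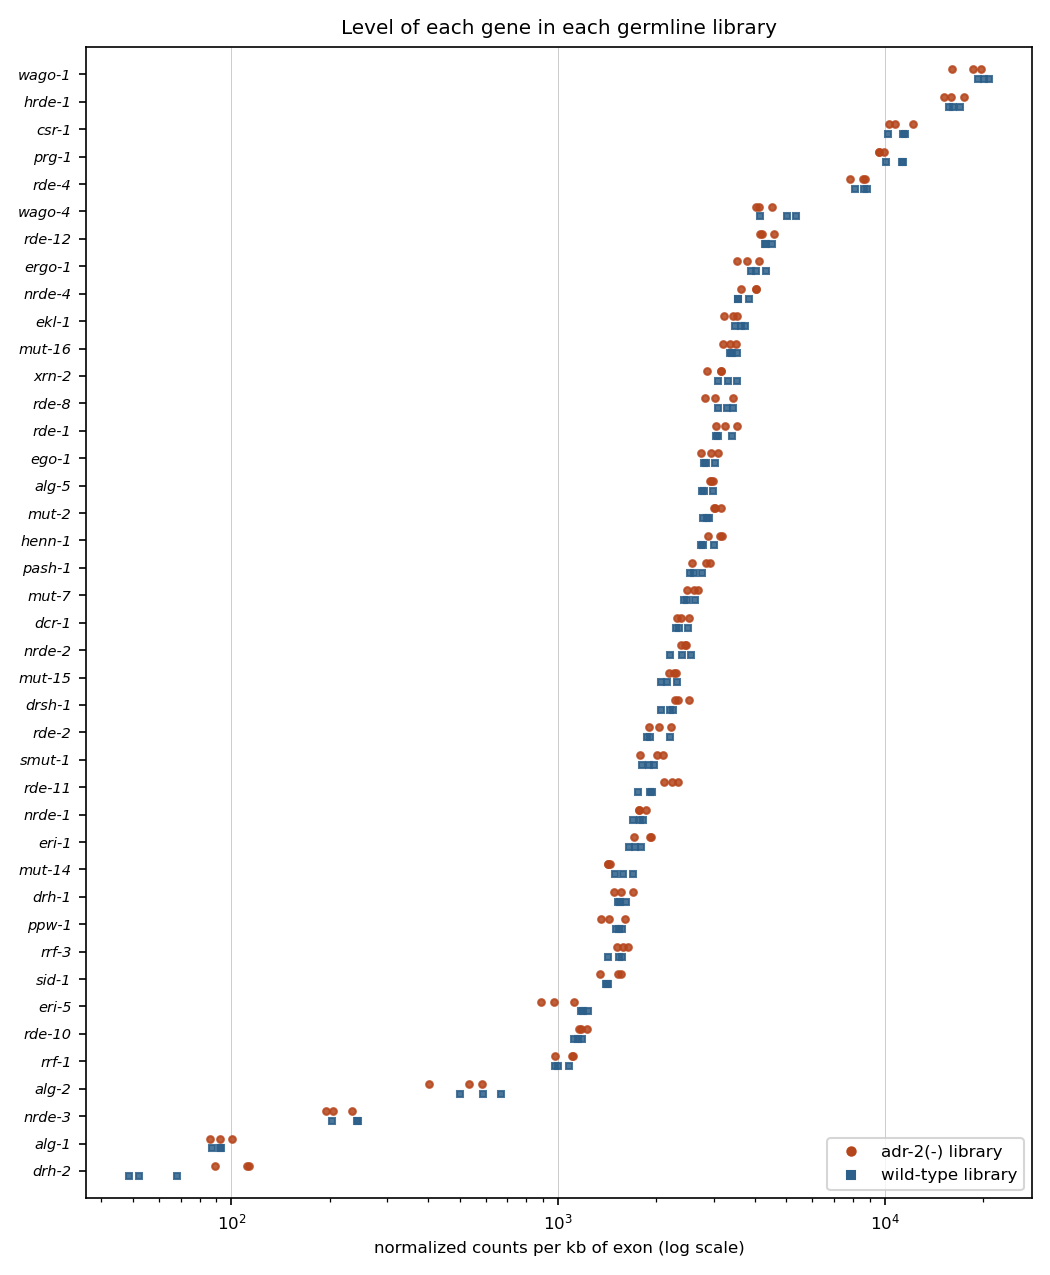
Normalized counts per kb of exon in each library (x axis, log scale) for the 41 genes, ordered by their wild-type mean, with adr-2(-) libraries as circles above wild-type libraries as squares. Argonaute genes take the first 4 places, and drh-2, alg-1 and nrde-3 the last 3, with the strains side by side in nearly all rows.

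Ratios within a library compare related genes without depending on how libraries are scaled. In all, 6 pairs were compared by an exact permutation test, two-sided, which cannot go below p = 0.1, with Benjamini-Hochberg adjustment over the 6 pairs. The log2 ratio of drh-1 to drh-2 per kb was 4.12, 3.72 and 3.93 in adr-2(-), against 4.57, 4.87 and 4.99 in wild type. The groups did not overlap, with drh-1 15.2-fold above drh-2 in adr-2(-) and 28.0-fold above it in wild type (exact permutation p = 0.1, adjusted p = 0.4).

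Other pairs showed smaller shifts. alg-2 exceeded alg-1 by 5.39-fold in adr-2(-) and 6.42-fold in wild type, with overlapping libraries (exact permutation p = 0.3). The log2 ratio of mut-14 to smut-1 was -0.45 ± 0.12 in adr-2(-) and -0.25 ± 0.13 in wild type (SD, n = 3 each, exact permutation p = 0.2). The log2 ratio of wago-1 to ppw-1 was 3.63 ± 0.072 in adr-2(-) and 3.71 ± 0.025 in wild type (SD, n = 3 each, exact permutation p = 0.2). ego-1 exceeded rrf-1 by 2.75-fold in adr-2(-) and 2.82-fold in wild type, and hrde-1 exceeded nrde-3 by 76.7-fold in adr-2(-) and 71.1-fold in wild type. The exact permutation p of these last ratios was 0.6 for rrf-1 to ego-1 and 0.5 for hrde-1 to nrde-3, and the adjusted p over the 6 pairs was at least 0.4.

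**Figure D5:**
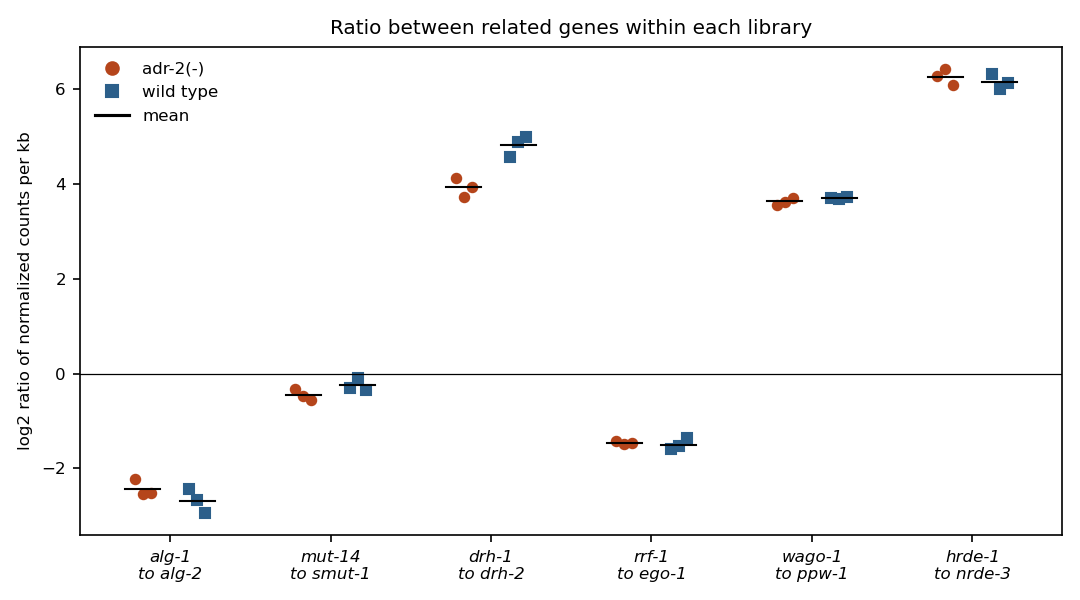
Log2 ratio of normalized counts per kb between 2 related genes (y axis) in each library, with adr-2(-) as circles on the left and wild type as squares on the right of each pair, and the mean as a line. The groups stand apart for drh-1 to drh-2, with means of 3.92 in adr-2(-) and 4.81 in wild type, and overlap for the other pairs.

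Other genes of the same pathways were read from lists of further Argonautes and of cofactors for piRNAs, 26G RNAs, germ granules, microRNAs, nuclear RNAi and systemic RNAi. Of 58 names, 51 could be tested, and limma, edgeR and DESeq2 each called 0 of them, against 0.297%, 0.199% and 1.31% of all genes by the same tools. By limma, 3 of the 51 had an unadjusted p under 0.05, or 5.88%, against 12.5% of all genes tested. The smallest adjusted p by DESeq2 was that of nhl-2, which encodes a cofactor of microRNA Argonautes. nhl-2 had 14688, 14909 and 15917 normalized counts in adr-2(-), against 13419, 12791 and 11770 in wild type. Its groups did not overlap, and the log2 fold change was 0.26 ± 0.068 (SE), with an adjusted p of 0.179 by limma, 0.188 by edgeR and 0.024 by DESeq2. Its fold change was below the size needed for a call.

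Across these 51 genes 3 had all adr-2(-) libraries higher, or 5.88% against 9.5% of all genes tested, and 8 had all lower, or 15.7% against 9.26%. The median log2 fold change was -0.064, with 18 positive and 33 negative. By list, the further Argonaute with the largest such difference was wago-11, an annotated pseudogene with a log2 fold change of -0.57 ± 0.29 (SE), on few reads. Among piRNA factors pid-2 had -0.14 and tost-1 had -0.078, and among germ granule genes pgl-3 had -0.24 and deps-1 had -0.11. The microRNA cofactor ain-2 had 0.13, the chromatin factors hpl-2 and set-25 had -0.16 and -0.13, and sid-5, a systemic RNAi gene with few reads, had 0.76 ± 0.41 (SE).

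Editing was read as a measure separate from the level of a gene. SAILOR, the authors' site caller, looks for reads with G where the genome has A and scores its confidence in each position. Sites were kept where that score was 0.75 or more in each of the 3 wild-type replicates and the position was absent from the adr-2(-) list. Of the 1012 such sites in 71 genes, 0 lay in the 42 members, drh-3 included. The 71 genes are 0.97% of the 7317 genes with any listed position in wild type, which include all 42 members, so a count of 0 among 42 is near that share. The median depth at listed positions in members was 770.5 reads in the merged adr-2(-) list and 390, 672 and 356 reads in wild-type replicates 1, 2 and 3. Positions are listed only where a changed read was seen, so deeply covered genes weigh most in these medians. The 1 position of drh-2 listed in wild type had 7 reads. The merged adr-2(-) list, from a strain without the enzyme, held 4 positions of drh-2 at a median depth of 24.5 reads. Of these, 3 reached the confidence, and the highest share of changed reads was 18.75%. Editing in the genes with few reads was thus not measurable at such depth.

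Positions with at least 1 read carrying a change were nonetheless listed in members, 2368 in the merged adr-2(-) list and 1060, 2136 and 1177 in the wild-type replicates. A single edited read supported 67.7% of them in adr-2(-) and 66.8% to 79.2% in wild type. The confidence of at least 0.75 was reached by 0.169% of the listed positions of members in adr-2(-), against 1.31% to 1.53% in wild type. Over all listed positions, intergenic ones included, these shares were 1.59% in adr-2(-) and 4.08% to 5.52% in wild type. The confidence can be reached on few reads, and the depth of members was not compared with that of all listed positions. The shares were not tested, since adr-2(-) has 1 merged list, and the depth of the lists differed.

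One position in a member reached the confidence in 2 of the 3 wild-type replicates. It lay in coding sequence of ergo-1 (V:1009202, plus strand, WS275 coordinates), with 5 of 130 reads edited in wild-type replicate 1 (3.85%), 1 of 312 in replicate 2 (0.321%) and 4 of 139 in replicate 3 (2.88%). The replicates thus gave low and unequal shares. The position was not listed in adr-2(-). Positions at the confidence in a single replicate were more numerous in other members. Of the 28 in members in wild-type replicate 2, 9 lay in xrn-2 and 8 in pash-1, with highest shares of 40.0% and 66.7% among their listed positions. In wild-type replicates 1 and 3, xrn-2 had 2 each and pash-1 had 1 and 0. The merged adr-2(-) list held 1 in xrn-2 and 0 in pash-1. No position of xrn-2 or pash-1 reached the confidence in a second wild-type replicate.

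Among the further pathway genes, simr-1 of the germ granule list had positions that reached the confidence in wild-type replicates 1 and 2 only. In its 3' UTR, I:5983076 was edited at 12.2% and 4.0%, and I:5983111 at 5.26% and 2.20%, in these 2 replicates. Neither position was listed in wild-type replicate 3 or in adr-2(-). Sites kept in all 3 wild-type replicates were found in 1 of the further pathway genes. wago-2, a pseudogene of the WAGO Argonaute family, held 44 of the 1012 sites between 5368877 and 5369547 on chromosome I, edited on average in 32.8% ± 2.31 of reads in wild type (SD, n = 3). Its level was 18842, 20881 and 20049 normalized counts in adr-2(-), against 23678, 22302 and 20278 in wild type. The groups overlapped, with a log2 fold change of -0.15 ± 0.075 (SE) and an adjusted p of 0.456 (limma).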

How the data were processed

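Germline poly(A) RNA of 3 adr-2(-) and 3 wild-type replicates was sequenced by the authors from stranded libraries and aligned to the WS275 genome with STAR. The deposited expression signal is a gene count divided by 1 factor per library, and whole reads were recovered for 100% of the values, within 0.01 of a read. The deposited log2 fold changes and p-values are the authors' DESeq2 comparison and were not used. The deposited coverage is the read depth of a site and the deposited confidence is a SAILOR score between 0 and 1. How reads were counted per gene is not given in the sources used here. Samples were mapped from their labels.

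The design set limma for normalized values. limma 3.58.1 in R 4.3.3 was fitted with a mean-variance trend to log2(normalized count + 1) for genes with a mean of at least 10, with Benjamini-Hochberg adjustment, and fold changes are on that scale. DESeq2 1.42.0 and edgeR 4.0.16 (quasi-likelihood) were run on the recovered reads. Scripts were tested on simulated data. Exon lengths, positions and gene types were taken from Ensembl release 115 (WBcel235). Names matched for 18171 of 18206 genes, 952 of them by RefSeq locus, drh-2 included. P-values of limma, edgeR and DESeq2 set the strain difference against the spread between 3 biological replicates per strain, with variances estimated with help from all genes. The exact permutation p uses only the ways of dividing the libraries between the strains. Percent editing at a site is a share of reads, with no molecular identifiers used. The SD given with it is the spread between the 3 wild-type replicates.

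All members were accounted for. Values per library were set for the 5 largest increases and decreases, the 5 highest and lowest levels, the paired genes and any member with a repeated site, and in the pathway lists for called genes and at most 2 per list without overlap. Members and lists were chosen with earlier results of these data known. Alternatives were the tool, normalization, pseudocount, filter, a replicate block, leaving out each library, site thresholds and gene length. Summaries were computed in pandas 2.3.3 with NumPy 2.4.6 and SciPy 1.17.1 under Python 3.11.15, and plotted with Matplotlib 3.10.9.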

Additional observations from a re-analysis of the deposited data

How the results depend on the processing

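No member was called by limma under TMM normalization, a pseudocount of 0.5 or 5, no filter, a minimum mean of 50, a replicate block or without any 1 library (0 to 0), nor by edgeR, and DESeq2 called 1. Over all genes, 29 were called by limma, against 127 by DESeq2 and 19 by edgeR, and between 8 and 64 without 1 library. The 64 came without adr-2(-) replicate 2, and 8 came without adr-2(-) replicate 3 or without wild-type replicate 1. The cause was not tested. The median log2 fold change of the members ran from 0.00062 to 0.046 without 1 library. Of the 41 members, those whose groups did not overlap numbered 9 to 18 without 1 library. There were 18 without adr-2(-) replicate 2, against 34.2% of all genes tested, and 14 without wild-type replicate 1, against 29.6%. The other settings gave 9 or 10 members, against 26.4% to 27.8% of all genes tested. As shares of 41, 18 and 14 lie above the share of all genes and 9 and 10 below it. Why the settings differed was not tested. The 5 largest increases and the 5 largest decreases kept their sign under each alternative. They were picked by size from these same libraries, so this is not separate support for them. Of all 41 members, 29 kept their sign without each of the 6 libraries and 12 did not, whose log2 fold changes lay between -0.025 and 0.042.

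Replicate numbers were not used to pair the samples in the main fit. Deviations of same-numbered libraries from their strain means correlated at 0.031, -0.22 and 0.38, and those of differently numbered libraries between -0.38 and 0.42. With 3 libraries per strain these values cannot settle whether same-numbered samples were handled together. With the replicate block limma called 25 genes and 0 members, with drh-2 at an adjusted p of 0.147.

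Members held 1 edited site when 2 of 3 wild-type lists were enough and 1 without wild-type replicate 2 (0 to 1 without 1 list), the position in ergo-1, and 0 under the other site settings. The ratio of rrf-1 to ego-1 turned to -0.0099 (log2, adr-2(-) minus wild type) without wild-type replicate 1, over a range of -0.0099 to 0.10 without 1 library. The median level per kb was 2322 to 2469 without 1 wild-type library.

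Depth limits drh-2 most, with 156 reads in its least covered library.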
